A study of Rattus norvegicus with 415 samples.

Results

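Fat from outbred rats (Rattus norvegicus) aged 17 weeks was profiled by RNA sequencing, and the samples with the most and the least message for fatty acid synthase (Fasn, ENSRNOG00000045636) were set against each other. All samples were ranked by their deposited FPKM of Fasn, a read number scaled to the length of the gene and the depth of the library. The highest 25.1% of samples were compared with the lowest 25.1%, so that 50.1% of the samples entered, and the 49.9% between them served as a separate set. Titles cut the samples into 3 blocks, and the high samples numbered 6, 52 and 46 in blocks 1, 2 and 3, the low samples 12, 71 and 21. The labels put every sample in 1 group, with 1 tissue and 1 age. They name no treatment, diet, sex or depot, so the high and low samples are ends of 1 range and not groups of the study, whose stated design was to link genes to physiological traits through their position in the genome. The labels do not say whether samples came from separate animals, and p-values then measure only the spread between these samples.

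Fasn is the enzyme that builds palmitate from acetyl-CoA and malonyl-CoA with electrons from NADPH, the last step of new fatty acid synthesis in the cytosol. In liver its transcription is driven by insulin through the sterol-responsive factor SREBP-1c. In fat and liver it is also driven by sugar through the carbohydrate-responsive factor ChREBP, and it falls with fasting. Enzymes that supply its substrates, such as ATP citrate lyase and acetyl-CoA carboxylase, are commonly regulated with it.

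Fasn was abundant in every sample. The lowest value was 55.6 FPKM, the median 139.9 and the highest 248.7, with a mean of 142.7 ± 29.8 (SD over all samples), and 0.567% of 18358 genes, Fasn included, had a mean at least as high. The highest sample had 1.78 times the median and the lowest 0.397 times the median, a 4.48-fold range. The values formed 1 continuous range without a gap at either boundary, as the plot of ranked samples shows. Just inside and just outside the high samples Fasn was 161.6 and 161.5 FPKM. At the lower boundary it was 122.8 inside the low samples and 122.9 outside them.

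**Figure D1:**
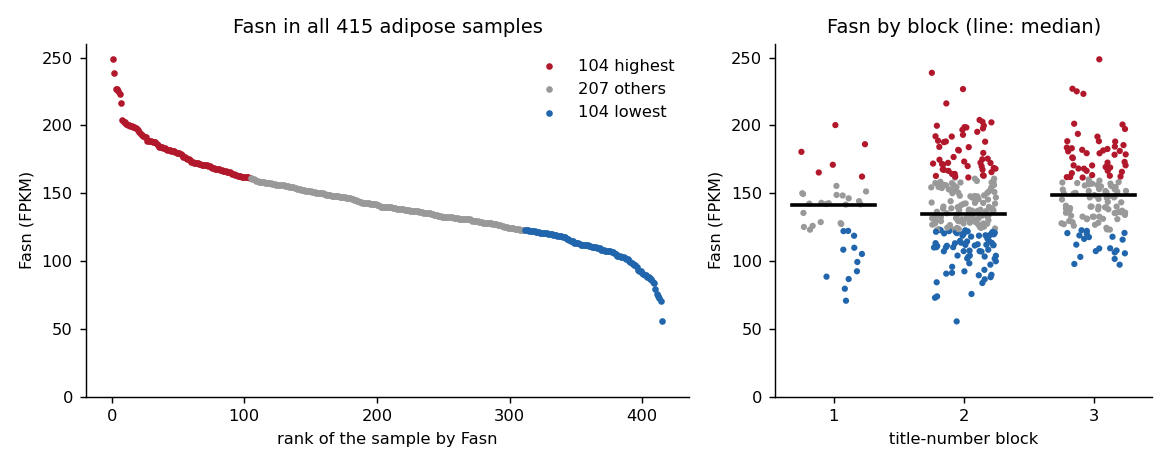
Left, Fasn FPKM of each sample against its rank, with the high, low and other samples in separate colours; right, the same values by title-number block with the median as a line. The ranking falls smoothly from 248.7 to 55.6 FPKM, and the block medians are 141.7, 134.9 and 148.4 FPKM.

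In the high samples the lowest, median and highest Fasn values were 161.6, 178.5 and 248.7 FPKM, and in the low samples they were 55.6, 110.2 and 122.8. These values chose the samples and are a description without a test. The mean was 181.7 ± 17.7 FPKM (SD) in the high and 107.1 ± 13.7 (SD) in the low samples, a ratio of 1.70. On the deposited scale the contrast spans less than a doubling of the message. Fasn rested on a median of 6052 reads per sample, which gives a counting error of 1.29%, small beside a coefficient of variation of 20.9% between samples. Genes of like level, the 370 others with a mean of 100 to 200 FPKM, varied less. Their median coefficient of variation was 11.3%, and 98.4% of them had a smaller SD of log2(FPKM + 1) than the 0.31 of Fasn.

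Each sample title holds a number and a suffix whose meaning the labels do not give. Gaps above 500 in the numbers gave the 3 blocks, which hold 9.40%, 55.9% and 34.7% of the samples and were used as possible batches. The mean Fasn level was 133.6 ± 28.96 FPKM for block 1, 139.3 ± 30.4 for block 2 and 150.6 ± 27.3 for block 3 (SD), and it differed between the blocks (limma F test, Benjamini-Hochberg adjusted p = 0.000303), while the ranges of the blocks overlapped. The same test called 8546 of 16131 genes, or 53%. High samples made up 15.4%, 22.4% and 31.9% of blocks 1, 2 and 3, and low samples 30.8%, 30.6% and 14.6%. The block was therefore a covariate in every comparison of genes unless stated.

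Samples that share a title number resembled each other in Fasn. Over all such pairs the correlation of log2(FPKM + 1) between the pair's members was 0.335, given as a description, and the median difference within a pair was 0.21 on that scale. In 14 pairs (13.3%) both samples were high, in 6 (5.71%) both were low, and in 10 (9.52%) 1 sample was high and the other low. The high samples held 91 title numbers and the low samples 98, with 9 numbers in both. What a shared number means is not given. Samples with the same number always lie in the same block, and the correlation was not adjusted for the block. No value for pairs without a shared number is given here for comparison.

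Sequencing depth moved with Fasn. The reads in genes had a median of 4414293 in the high and 4699551 in the low samples, and mean log2 reads were 0.08 lower in the high samples (two-sided permutation test, p = 0.00798, adjusted p = 0.0133 over 5 comparisons). Within blocks the difference was 0.04 in block 1 (exact permutation test, 6 against 12 samples, adjusted p = 0.767), 0.06 in block 2 (permutation test, adjusted p = 0.187) and 0.22 in block 3 (permutation test, adjusted p = 5e-05), lower in the high samples each time. Between the 50 highest and the 50 lowest samples it was 0.16, again lower in the high samples (permutation test, adjusted p = 5e-05). The pooled difference was thus detected within block 3 and not within blocks 1 and 2. Of the 12 samples with fewer than 3500000 reads, 8 were low, 3 were in neither extreme and 1 was high.

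Over all samples log2 Fasn fell with log2 reads, with a Pearson r of -0.165 (permutation p = 0.00075, adjusted p = 0.0015) and a Spearman coefficient of -0.281 (permutation p = 1e-05, the smallest the permutations can give, adjusted p = 2e-05). Leaving out the 2 samples whose depth was farthest from the median gave r = -0.191. Within block 3 r was -0.552 and the Spearman coefficient -0.516 (permutation p = 1e-05 for both, r without the 2 farthest samples -0.513). Within block 2 r was -0.0854 (permutation p = 0.194) and the Spearman coefficient -0.201 (permutation p = 0.00218), with r at -0.111 without the 2 farthest samples. Within block 1 r was -0.229 (permutation p = 0.159) and the Spearman coefficient -0.326 (permutation p = 0.0437), with r at -0.436 without the 2 farthest samples. Adjusted over these 4 sets of samples, Pearson's r passed overall and in block 3 (adjusted p = 4e-05), and not in blocks 1 and 2 (adjusted p = 0.194 for both). The Spearman coefficient passed in each set, with adjusted p of 0.0437 in block 1, 0.00291 in block 2 and 2e-05 in block 3. The relation by block is drawn in the plot of Fasn against reads.

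**Figure D2:**
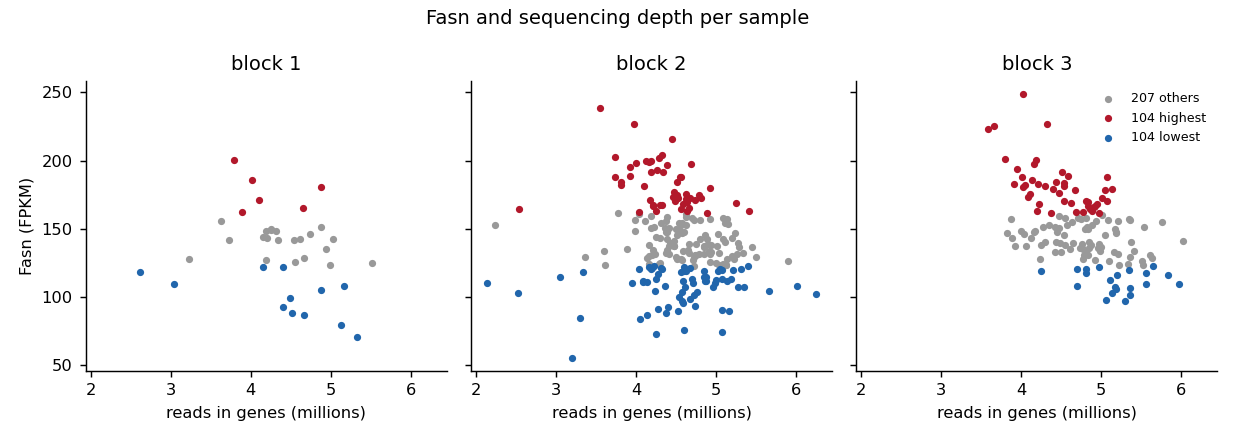
Fasn FPKM (vertical axis) against reads in genes (horizontal axis), 1 panel per block and 1 point per sample, coloured by Fasn group. In block 3 the deeper samples lie lower (r = -0.552), while in blocks 1 and 2 the cloud is wide and holds most of the shallow samples.

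Nearly as many genes differed between the high and low samples as did not. With limma on log2(FPKM + 1) and the block as covariate, 7425 of 16130 genes passed a Benjamini-Hochberg adjusted p under 0.05, or 46%. Of these, 3180 were higher in the high samples (19.7% of the genes tested) and 4245 were lower (26.3%). The median difference over all genes was -0.02. After quantile normalization, a stricter scaling between samples, 3549 genes were higher and 2930 lower, so the balance of directions depends on the scaling. In 0 of the 16130 genes did the values of the high and low samples not overlap.

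The differences were small. Among the genes called higher the median difference on the log2(FPKM + 1) scale was 0.11, and the middle 80% of them lay between 0.06 and 0.23. Among those called lower the median was -0.14, and the middle 80% had sizes between 0.07 and 0.30. A difference of at least 0.25 was reached by 987 called genes, of which 714 were lower and 27.7% higher. At least 0.5 was reached by 70 called genes, or 0.434% of those tested, 30 higher and 40 lower. Fasn itself differed by 0.76 on this scale, by the choice of the samples.

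The direction of the differences moved with how densely a gene was read. Among the most densely read genes other than Fasn, the 1.75% of genes tested with 0.5 or more mean reads per bp, 78.7% were higher in the high samples and 0.709% lower, and the median difference was 0.11. Among the 897 genes with 0.3 to 0.5 reads per bp, 62.3% were higher and 2.90% lower. The balance turned near 0.1 to 0.2 reads per bp, where 24.9% of 3741 genes were higher and 25.2% lower. Among the 2789 genes with 0.02 to 0.05 reads per bp, 7.74% were higher and 36.1% lower, with a median difference of -0.08. Fasn is a densely read gene too, with 0.654 mean reads per bp over its 9139 bp, and 0.550% of the genes of the table, Fasn included, were read at least as densely.

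**Figure D3:**
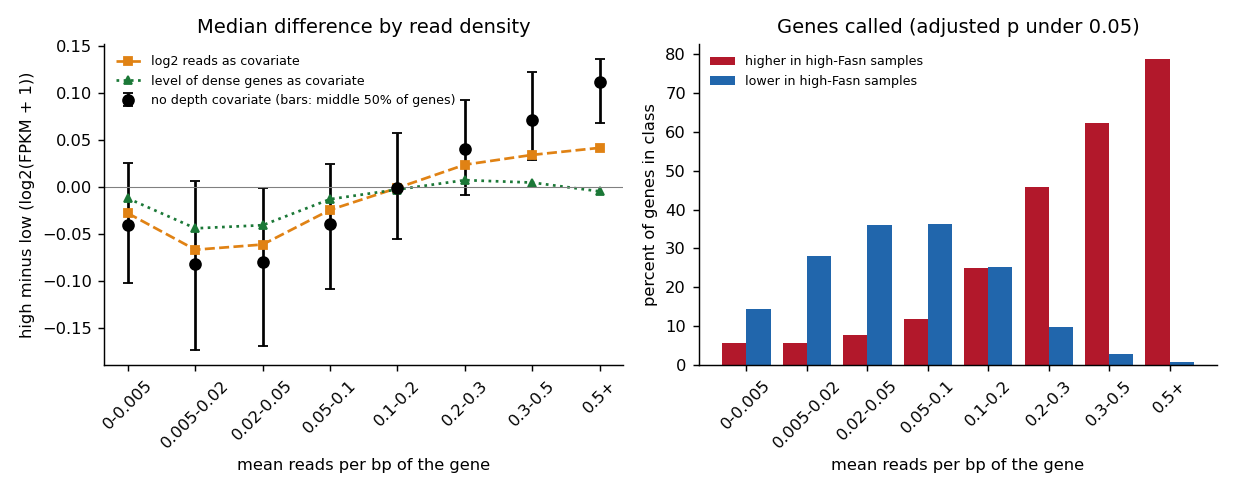
Left, median difference of high minus low samples on the log2(FPKM + 1) scale for genes grouped by their mean reads per bp (bars hold the middle 50% of genes), with medians after adding log2 reads or the mean level of the densest genes as a covariate; right, percent of genes in each class called higher or lower. The share called higher climbs from 5.58% in the sparsest to 78.7% in the densest class, and the median of the densest class goes from 0.11 to 0.04 with log2 reads as covariate. The covariate of dense genes is the mean of the densest class itself, so its point near 0 in that class is fixed by construction.

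The level of densely read genes followed depth. In the other samples the median slope per doubling of reads was -0.62 on the log2(FPKM + 1) scale for the densest genes and 0.21 for the genes with 0.02 to 0.05 reads per bp. The mean log2 level of the densest genes was 7.17 ± 0.09 (SD) in the high and 7.08 ± 0.16 (SD) in the low samples. The level of these genes was thus higher by 0.09 (two-sided permutation test without the block, p = 2e-05, the smallest these permutations can give). Fasn is read as densely as these genes, its own level fell with reads over all samples, and the handling of duplicate reads is not given, so how far the ratio of 1.70 depends on read density was not tested.

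The comparison was therefore repeated with depth taken into account. With log2 reads as a covariate 8375 genes (51.9%) were called, 3720 higher and 4655 lower. Of these, 6396 had also been called without it, and 6392 had the same sign. The median of the densest genes was then 0.04, with 55.7% higher and 15.96% lower. With the mean level of the dense genes as covariate 8198 genes were called, 5494 of them also without it and 5371 with the same sign. The densest genes then had a median of -0.0047, a value near 0 that the covariate fixes, since it is the mean of these same genes. Quantile normalization also equalises the levels of dense genes between samples by its construction, and their median was 0.01 under it. In 60 pairs of high and low samples of the same block with reads within 0.05 on the log2 scale, 4830 genes were called and 4408 kept a call and its sign. All these fits reused samples of the main comparison, so shared calls and signs are partly fixed in advance. In the matched pairs the median of the densest genes was 0.03. This value and the 0.04 with log2 reads were both below the 0.11 of the main comparison. The matching also changed which samples were compared and how many, and the cause of the lower values was not tested.

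The ranking was also repeated on Fasn after a fit on depth. The fit used 1 slope for all blocks, while r of log2 Fasn with log2 reads was -0.552 in block 3 and -0.0854 in block 2. Whether the new ranking was free of depth within each block was not tested. Ranked by the residual of Fasn on log2 reads and block, 88 of the high samples (84.6%) and 90 of the low samples (86.5%) kept their place, 0 changed ends, and 7584 genes were called. Of the original calls 6475 were made again, all with the same sign. Ranked by the residual on the level of the dense genes, 83 high and 87 low samples kept their place and 6388 genes were called, with 5138 of the original calls made again in the same direction. Both new rankings shared most samples with the original one, so calls made again with the same sign are partly fixed in advance.

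The samples outside both extremes gave a test in samples that the ranking had left out. Some of them share a title number with a high or low sample, so the sets may not be independent. In the other samples Fasn ran only from 122.9 to 161.5 FPKM. Each gene's log2(FPKM + 1) was fitted on that of Fasn with the block as covariate. The slope passed in 2453 of 16130 genes, or 15.2% (limma, Benjamini-Hochberg adjusted p under 0.05), with 1410 positive (8.74%) and 1043 negative (6.47%). Both tests with the same sign were passed by 1965 genes, 26.5% of the genes called between the extremes and 80.1% of those called by slope. Opposite signs were found in 4 genes called by both.

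The direction carried over between the extremes and the other samples, which share some title numbers. Of the 3180 genes higher in the high samples, 91.2% had a positive slope in the other samples and 38.1% a positive slope that passed, against 43.8% and 8.74% of all genes. Of the 4245 lower genes, 9.63% had a positive slope, and 17.8% had a negative slope that passed, against 6.47% of all genes. Dense genes stood out here too, since 73.8% of the densest class had a positive slope that passed. With the mean level of the dense genes as covariate the slope passed in 828 genes, 596 of them among the 2453, and with log2 reads it passed in 1896.

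**Figure D4:**
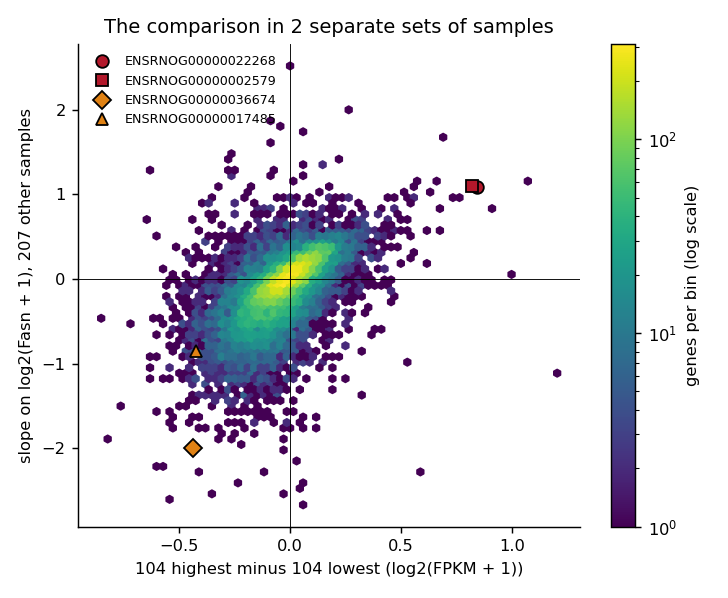
For 16130 genes, the difference between the high and the low samples (horizontal axis, log2(FPKM + 1)) against the slope on log2(Fasn FPKM + 1) in the other samples (vertical axis), coloured by the number of genes per bin on a log scale, with the 4 genes described singly marked. Most genes lie along the lower-left to upper-right diagonal, and the marked higher genes lie far to the upper right at differences of 0.84 and 0.82.

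The possible batches were compared next. Within block 2, with 52 high and 71 low samples, 5288 genes were called, and 5064 of these were called overall with the same sign. Within block 3, with 46 high and 21 low samples, 4510 genes were called, and 3358 were shared with the same sign. Within block 1, with 6 high and 12 low samples, 36 genes were called, 35 of them shared with the same sign. Among the 10 high and 9 low samples that share a title number with a sample of the other extreme, with the number as a block, limma called 0 genes after Benjamini-Hochberg adjustment, and 1583 had an unadjusted p under 0.05. The sign was the same in all 3 blocks for 6465 of the 7425 called genes and for 67 of the 70 with a difference of at least 0.5. The calls overall came from the samples of these same blocks, so shared calls and signs are partly fixed in advance. The share of all genes with the same sign in the 3 blocks is not given here. A test of the difference between blocks, the interaction of extreme and block, called 0 of 16130 genes (0%, limma with Benjamini-Hochberg adjustment), and 1551 had an unadjusted p under 0.05. Block 1 entered this test with only 6 against 12 samples, so 0 calls do not show that the blocks are alike.

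Slopes in the other samples were called mainly where block 3 entered. Within block 3, with 77 samples, 2115 genes passed, of which 1313 were among the 2453. Within block 2, with 52.7% of the other samples, 7 passed, and within block 1, with 21 samples, 0 passed. At an unadjusted p under 0.05 the counts were 4599, 1396 and 1894 for blocks 3, 2 and 1. With blocks 1 and 2 together, which hold 62.8% of the other samples, 0.719% of genes passed. A difference between the blocks was not shown by the test of that difference. The interaction of slope and block called 0 genes (0%, limma), and 1143 had an unadjusted p under 0.05. In signs the blocks were closer. Of the genes higher in the high samples, 82.8%, 84.7% and 86.1% had a positive slope within blocks 1, 2 and 3, against 48.6%, 47.3% and 43.8% of all genes.

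The identifiers of the table are not paired with gene names in the sources used here, apart from Fasn. Other lipogenic enzymes and markers of adipocytes, leukocytes, muscle or blood were therefore not analysed here, and whether the high samples were lipogenic beyond Fasn was not tested. In bulk tissue, more of a cell type and more message per cell cannot be told apart. The 2 genes with the largest difference in each direction are given by identifier. They had to pass both tests with the same sign and average at least 5 FPKM, so their p-values chose them and are no further support. Candidates under that rule numbered 1192 higher and 576 lower.

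ENSRNOG00000022268, 3215 bp long, was higher in fat with much Fasn. Its lowest, median and highest FPKM were 14.8, 41.8 and 116.8 in the high samples, 10.5, 33.7 and 67.5 in the other samples, and 5.59, 22.3 and 50.5 in the low samples. The ranges overlapped, but 98.1% of the high samples lay above the median of the low samples, and 3 low samples lay above the median of the high ones. The difference was 0.84 on the log2(FPKM + 1) scale (SE 0.07, limma, adjusted p = 3.85e-22), and the slope on Fasn in the other samples was 1.09 (SE 0.27, adjusted p = 0.00277). It was 0.74, 0.87 and 0.81 within blocks 1, 2 and 3 (limma, adjusted p = 0.135, 1.335e-12 and 1.241e-07). Its level rose with depth in the other samples, by 0.64 per doubling of reads, opposite to the dense genes, and its difference was 0.89 with the level of the dense genes as covariate.

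ENSRNOG00000002579, 4895 bp long, separated the extremes more sharply. Its lowest, median and highest FPKM were 9.999, 18.8 and 36.1 in the high, 6.49, 13.04 and 25.3 in the other, and 5.39, 9.99 and 17.5 in the low samples. Every high sample lay above the low median, and 0 low samples lay above the high median. The difference was 0.82 (SE 0.05, limma, adjusted p = 5.202e-35), a ratio of mean FPKM of 1.91, which is larger than the 1.70 of Fasn itself. The slope in the other samples was 1.10 (SE 0.20, adjusted p = 3.761e-05), with 1.40 in block 2, 0.95 in block 3 and -0.28 in the 21 samples of block 1.

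Its mean rose step by step along the ranking, from 10.3 FPKM in the low samples to 12.4 and 14.7 in the lower and upper part of the other samples and 19.6 in the high ones. Between the extremes it was higher in every block, by 0.90 (adjusted p = 0.0562), 0.88 and 0.66, the first with 6 against 12 samples. Like Fasn it also differed between the blocks (limma, adjusted p = 3.289e-09), with means of 13.1, 13.1 and 16.4 FPKM.

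**Figure D5:**
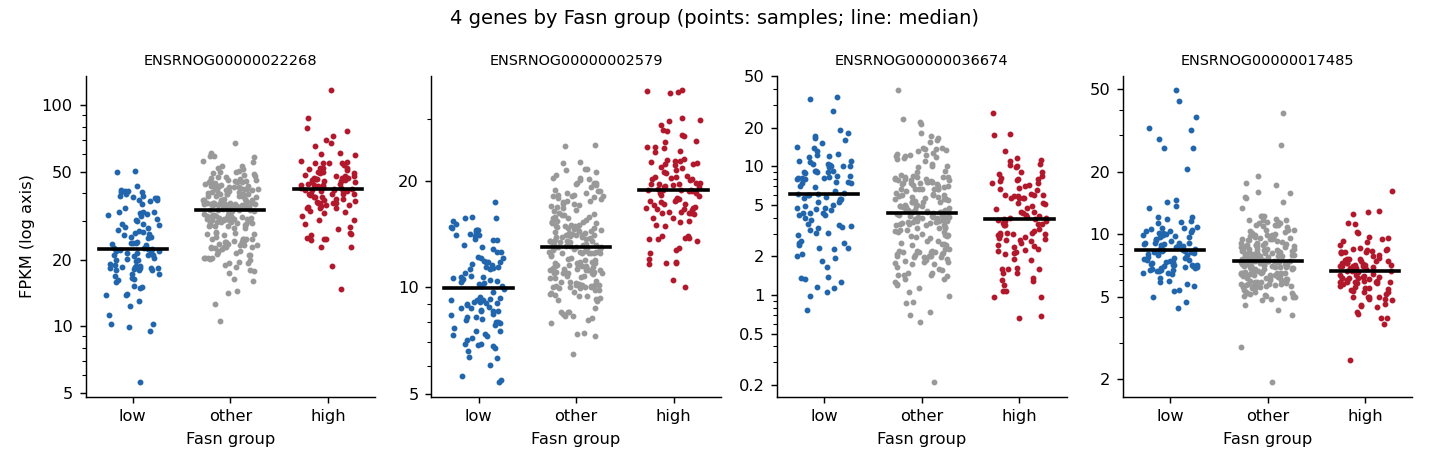
FPKM on a log axis of the 4 genes described by identifier, with 1 point per sample in the low, other and high Fasn samples and the median as a line. The medians of the 2 higher genes climb from 22.3 to 41.8 and from 9.99 to 18.8 FPKM, while the lower genes shift less than the spread within a group.

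ENSRNOG00000036674, 1014 bp long, was lower in the high samples on average, on few reads. In the high samples its lowest, median and highest FPKM were 0.659, 3.89 and 25.8, in the other samples 0.210, 4.37 and 38.9, and in the low samples 0.768, 6.07 and 34.7. The groups overlapped almost wholly, with 76 high samples (73.1%) below the low median and a median of 17 reads in the high samples. The difference was -0.44 (SE 0.13, limma, adjusted p = 0.00223), and the slope on Fasn in the other samples was -1.99 (SE 0.54, limma, adjusted p = 0.00553). It was -0.70 in block 1, -0.62 in block 2 and 0.02 in block 3 (adjusted p = 0.374, 0.000783 and 0.965), so the pooled value was not seen within block 3. The interaction with block did not pass for this gene (limma, adjusted p = 0.519).

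ENSRNOG00000017485, 1473 bp long, was lower in a similar measure with less spread. The lowest, median and highest FPKM were 2.49, 6.64 and 16.2 in the high, 1.93, 7.46 and 38.6 in the other, and 4.39, 8.44 and 49.5 in the low samples. The highest values stood among the low samples, while 87 of the high samples (83.7%) lay below the low median. The difference was -0.42 (SE 0.07, limma, adjusted p = 1.944e-07), and it was -0.43, -0.43 and -0.41 within blocks 1, 2 and 3 (adjusted p = 0.409, 9.805e-05 and 0.0155). The slope in the other samples was -0.85 (SE 0.26, adjusted p = 0.0171).

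The 70 genes with a difference of at least 0.5 were of unlike kinds. The 30 higher ones had a median length of 1982 bp and a median of 78.6 mean reads per sample, 2 of them were at most 200 bp long, and 15 had a positive slope that passed in the other samples. The 40 lower ones had a median of 2.86 mean reads per sample, and 28 of them were at most 200 bp long. In the other samples 0 of these 40 had a slope that passed in either direction, and 17.5% had a positive slope. Over all genes tested the median length was 2039 bp, and 1139 of 16130 were at most 200 bp long. The lower side of this list thus rests on short genes with very few reads, where the size of a difference is poorly known.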

How the data were processed

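The authors deposited 1 table of 18358 genes in 415 samples without a unit in its header. From the values the unit is FPKM as deposited: every value was a whole number of reads (tolerance 1e-06) divided by a gene length and by 1 factor per sample, equal to a median-of-ratios size factor times the geometric mean of the totals, so the samples were already scaled. The submitters' processing notes name STAR, Picard, featureCounts and DESeq2, without versions, order or role. Build, gene models and the handling of duplicates are not given in the sources used here. Every column was matched to a sample by its title.

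Reads in genes per sample, recovered from the values, ran from 2139163 to 6248214. The 104 highest and the 104 lowest Fasn samples were compared, and the other 207 were kept apart. Values were analysed as log2(FPKM + 1), a scale that understates changes of low genes. Genes with FPKM above 1 in at least 20% of samples were kept, and Fasn was left out of the genes tested. limma 3.58.1 (lmFit, eBayes with trend) in R 4.3.3 with Benjamini-Hochberg adjustment over all genes kept was used for each comparison of genes, and 100000 permutations for reads and correlations, with scipy 1.17.1. Read recovery and the limma fit were tested on simulated data.

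The members, lists and tests were chosen with earlier results of these data known. Gene lists and promoter motifs had been planned; they were not run because 0 of 18358 identifiers matched a name. The named genes are the 2 largest differences in each direction that pass both tests with the same sign and average at least 5 FPKM. Alternatives were a pseudocount of 0.1, other filters, blocks (cut at gaps above 250, or none), covariates, rankings and sample sets, array weights, quantile normalization and voom on the recovered reads. The covariate and ranking by densely read genes, depth-matched samples, the limit of 3500000 reads, within-block slopes, slopes without block 3, the fit within title numbers and the classes of read density were chosen after the data were seen.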

Additional observations from a re-analysis of the deposited data

How the results depend on the processing

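Under 18 of 22 alternatives the number of genes called between the extremes stayed within 1.5 times 7425, from 5288 to 8375. It was 36 within block 1 and 4510 within block 3, where fewer samples were compared, and 4830 in the 60 depth-matched pairs, where both the number of samples and the balance of depth changed (the 50 highest against the 50 lowest gave 6532). Among the 10 high and 9 low samples that share a title number, with that number as a fixed block, limma called 0 genes, with 1583 at an unadjusted p under 0.05; this paired comparison has few samples. A like count need not mean the same genes. Quantile normalization called 6479 genes, of which 5009 were among the 7425 and 4973 had the same sign. The share of genes tested that also differed by at least 0.5 moved more than the count. Against 0.434%, it was 2.19% with a pseudocount of 0.1, 1.20% with voom, 1.5003% with the 50 highest and 50 lowest samples, 0.0930%, 0.725% and 0.657% within blocks 1, 2 and 3, 0.775% in the depth-matched pairs and 0% in the samples that share a title number; the cause was not tested. The slope test passed in 15.2% of genes, against 54.2% over all samples, which include the extremes, 5.13% with the level of dense genes as covariate, 0% and 0.0434% within blocks 1 and 2 and 0.719% with these blocks together; the cause was not tested. The lower mean log2 reads of the high samples (-0.08) were -0.038 and -0.057 within blocks 1 and 2 and missed the threshold there, and -0.16 between the 50 highest and 50 lowest. Of the named genes, ENSRNOG00000036674 reversed within block 3 (0.018), and each of the 4 missed the threshold within block 1 and in the samples that share a title number, with the sign kept (there 0.77 and 0.56 for the higher genes, -0.83 for ENSRNOG00000036674 and -0.57 for ENSRNOG00000017485), and held its call and sign under every other alternative run. Most alternatives refitted the samples that had chosen these 4 genes, so their kept calls and signs are no further support. Counting the title number as a random block gave 7438 genes. The edgeR alternative was not run, since the values are FPKM. Depth limits the short genes with under 3 mean reads.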

Other observations

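The direction of the differences showed less of a pattern with gene length than with read density. Among the 2092 genes under 500 bp, 5.11% were higher and 19.7% lower in the samples with the most Fasn, with a median difference of -0.10. Among the 1467 genes of 500 to 1000 bp, 19.6% were higher and 18.3% lower. From 1000 bp upward, 20.2% to 23.6% of each length class were higher and 23.8% to 32.9% lower. The share called in either direction rose with length, from 24.9% under 500 bp to 56.5% from 8000 bp upward. The share of high Fasn samples by title suffix was 24.6% of the samples with suffix 3, 24.2% of those with suffix 4, 28.6% of the 35 with suffix 5 and 33.3% of the 24 with suffix 6. Low samples were 22.3%, 28.7%, 20% and 25% of the same suffixes.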
